A study of Rattus norvegicus with 12 samples.

Results

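The RANK ligand and CSF1 axis was followed in rat bone through 9 genes: the cytokines Tnfsf11 (RANK ligand) and Csf1 (M-CSF), the receptors Tnfrsf11a (RANK) and Csf1r, the decoy receptor Tnfrsf11b (osteoprotegerin), the transcription factor Nfatc1, and the osteoclast markers Calcr, Acp5 and Car2. They were chosen by symbol, taking each probe set that the platform annotation assigns to 1 of these symbols alone. All 9 were measured, with 15 probe sets, among 14217 named genes. Tnfrsf11a, Tnfrsf11b, Csf1r, Nfatc1 and Acp5 had 1 probe set each, so for them no other probe set could be compared. The values are from Affymetrix rat genome arrays of total bone RNA from female Sprague-Dawley rats sacrificed on PND 81, 3 arrays per group, each a pool of RNA from 2 to 3 rats. LTBB OVX rats were fed a diet with 10% freeze-dried blueberry (BB) powder from PND 20 to PND 81, and STBB OVX rats received it from PND 20 to PND 34 only. OVX and sham rats were fed the casein-based control diet throughout. The LTBB OVX, STBB OVX and OVX rats were ovariectomized on PND 60, and sham rats had the sham operation. The labels name the femur as the bone, and the methods name the right tibia.

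Osteoclasts, the cells that resorb bone, arise from cells of the monocyte and macrophage lineage. M-CSF, acting through Csf1r, keeps the precursors alive and lets them express RANK, and RANK ligand, made by osteoblasts, osteocytes, stromal cells and hypertrophic chondrocytes, then drives them through TRAF6, NF-kB and AP-1 to switch on Nfatc1, the master transcription factor of the lineage. Osteoprotegerin binds RANK ligand and keeps it from RANK. Oestrogen loss is a classical setting of increased osteoclast formation.

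The deposited log2 values are centred: the 12 values of any probe set have 0 as their median. They give differences between arrays and no level of a gene, so no gene is set against another in abundance, and whether a marker is present in the tissue cannot be read from them. Since 9 of the 12 arrays are from OVX rats, those arrays lie near 0 for a gene that separates them from sham. All 3 sham arrays stood apart from the other 9: the SD over all probe sets was 0.781 to 0.824 in sham arrays, against 0.149 to 0.176 in LTBB OVX, 0.136 to 0.144 in STBB OVX and 0.145 to 0.194 in OVX arrays. Because the values are centred, this SD measures distance from the median over the arrays and not the spread of expression within an array. Between OVX and sham 58.9% of all genes passed an adjusted p of 0.05, so a call alone says little there. Genes of other tissue components moved with the same contrast. All 11 skeletal muscle genes were lower in OVX pools (median log2 fold change -6.22), as were 9 of 10 erythroid genes (median -3.08) and 5 of 5 neutrophil genes (median -2.72), while 7 of 8 genes of growth plate cartilage (median 4.25), 8 of 9 of osteoblasts and osteocytes (median 2.67) and 5 of 6 of marrow stroma (median 0.53) were higher. In bulk RNA of this kind fewer cells of a type and less RNA per cell cannot be told apart, and the part of tissue makeup in the changes of the 9 genes was not tested.

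In OVX bone 8 of the 9 genes were higher than in sham bone and 1, Car2, was lower. The changes ran from a rise of log2 4.34 for Acp5 to a fall of log2 1.90 for Car2. All 9 passed in a limma fit over 14217 genes with Benjamini-Hochberg adjustment, where 30.3% of all genes were called higher and 28.6% lower. The OVX pools did not overlap the sham pools for any of the 9, and this held for 61.2% of all genes. The median log2 fold change was 1.55 over the 9 genes and 0.0047 over all genes. Median centring of the arrays left all 9 called, with Acp5 at 4.34, but the sizes of these changes moved under quantile normalization. When the arrays were quantile normalized again, which gives all 12 the same distribution, 5 of the 9 genes passed between OVX and sham: Acp5 at 2.26, Csf1r at 1.27, Tnfrsf11a at 1.08, Tnfsf11 at 0.96 and Car2 at -0.77. Of all genes 14.1% were called in that setting. The sham arrays had the widest spread of centred values, so this step tends by construction to narrow differences from sham. It also widened some differences among OVX rats, such as that of Tnfrsf11b in STBB OVX minus LTBB OVX, from 0.50 to 1.11. A call lost under it does not show that a gene did not differ. The fold changes and intervals given for each gene hold for the values as deposited. Against OVX on the control diet, neither BB diet gave a call for any of the 9.

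**Figure D1:**
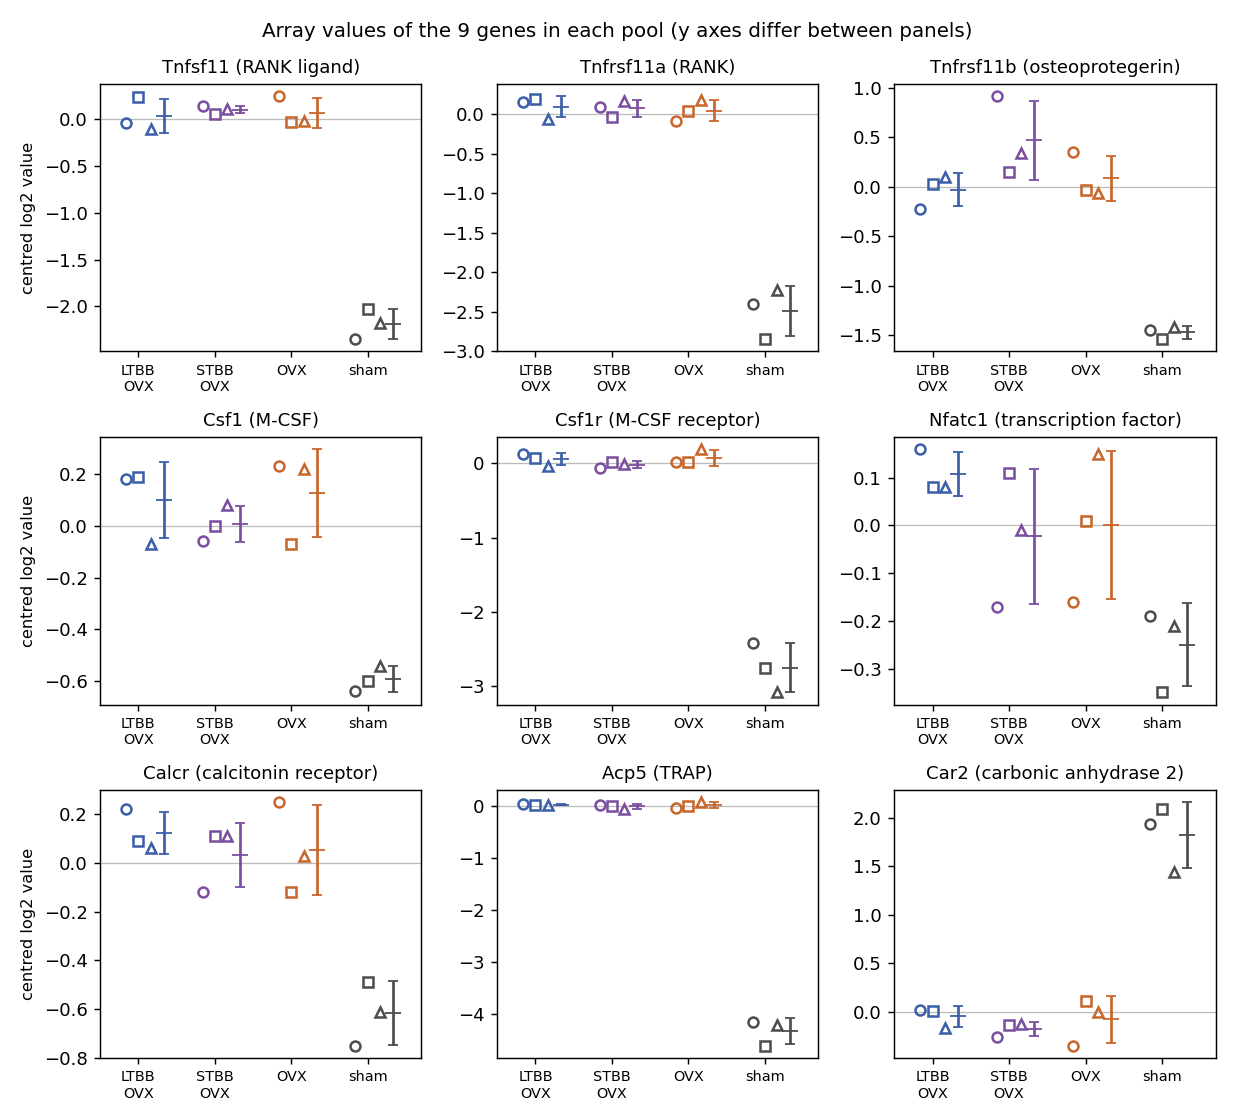
Centred log2 values (y axis, scaled separately in each panel) of the 9 genes in each pool of LTBB OVX, STBB OVX, OVX and sham rats (x axis, circle, square and triangle for pools 1, 2 and 3), with the group mean and SD (n = 3 pools). In 8 panels the 3 sham pools lie below every OVX pool, in the Car2 panel they lie above, and the 3 groups of OVX rats lie near 0.

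Promoter sequences of RefSeq (assembly GRCr8, 250 bases before to 50 bases after a start) were found for 4 of the 9 genes. The windows of Acp5 and Tnfsf11 are shown because Acp5, with more than 1 annotated start, had the largest difference between OVX and sham among the 9 genes and Tnfsf11 is the ligand of the axis. The upstream Acp5 window is chr8:28945881-28946180, the downstream one chr8:28943880-28944179 and that of Tnfsf11 chr15:60114430-60114729, all on the minus strand. Capitals mark matches to the motifs searched on both strands, and a window without capitals holds none.
Acp5, upstream start: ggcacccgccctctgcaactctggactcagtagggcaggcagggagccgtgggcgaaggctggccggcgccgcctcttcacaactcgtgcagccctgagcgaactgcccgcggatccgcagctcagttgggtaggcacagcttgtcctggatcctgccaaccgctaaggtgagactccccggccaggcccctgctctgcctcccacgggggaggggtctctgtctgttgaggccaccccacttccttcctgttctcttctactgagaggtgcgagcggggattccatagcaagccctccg
Acp5, downstream start: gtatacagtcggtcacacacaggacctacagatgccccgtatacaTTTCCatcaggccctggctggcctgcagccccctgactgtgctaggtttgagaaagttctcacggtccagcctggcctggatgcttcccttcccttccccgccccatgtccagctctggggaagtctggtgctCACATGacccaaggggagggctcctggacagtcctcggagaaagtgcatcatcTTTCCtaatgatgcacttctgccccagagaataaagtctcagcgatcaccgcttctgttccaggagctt
Tnfsf11: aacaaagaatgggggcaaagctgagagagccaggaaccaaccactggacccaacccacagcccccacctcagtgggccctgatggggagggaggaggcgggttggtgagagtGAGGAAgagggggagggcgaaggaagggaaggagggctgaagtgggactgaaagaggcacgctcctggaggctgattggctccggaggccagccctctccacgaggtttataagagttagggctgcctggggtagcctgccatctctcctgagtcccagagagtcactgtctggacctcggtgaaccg

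The motifs were the core of NFAT sites, GGAAA (held by 62.7% of all 33469 RefSeq promoter windows), the PU.1 core GAGGAA (27.6%), the AP-1 motif TGANTCA (7.33%), the M-box CATGTG bound by MITF (14.0%) and the E-box CACGTG (6.42%). The letters of the first and the second overlap where GAGGAA is followed by an A. In the downstream Acp5 window the NFAT core lies on the minus strand at positions -205 and -19 from the start, and the M-box, read as CACATG, at -72. The Tnfsf11 window holds the PU.1 core at -138. In the Csf1r window, which is not printed, there are 2 matches to the NFAT core and 2 to the PU.1 core, and in that of Calcr none. These matches describe letters and no binding was measured.

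Tnfsf11 encodes RANK ligand, the cytokine that osteoclast precursors need to differentiate. Its centred log2 values were -0.04, 0.24 and -0.10 in LTBB OVX pools, 0.14, 0.06 and 0.11 in STBB OVX pools and 0.25, -0.03 and -0.02 in OVX pools, against -2.35, -2.03 and -2.18 in sham pools. All 9 pools of OVX rats lay above all 3 sham pools, with no overlap, and the 3 diets overlapped. OVX exceeded sham by log2 2.26 (SE 0.109), a 4.77-fold difference (95% interval 4.05 to 5.63, adjusted p = 1.85e-09). Both probe sets gave the direction, at 1.93 and 2.58. Tnfsf11 ranked 175th among all genes from the largest rise down, and 3.44% of genes changed at least as much in either direction. Genes of the cell types named above as makers of the ligand moved the same way. In growth plate cartilage 7 of 8 genes rose (87.5% called, median 4.25). Of osteoblast and osteocyte genes 8 of 9 rose (88.9%, median 2.67) and of marrow stroma genes 5 of 6 (83.3%, median 0.53), beside 58.9% of all genes called. Lymphocyte genes did not share this: of B cell genes 0 of 3 rose and 1 fell (33.3% called), and of T cell genes 2 of 7 rose and 1 fell (42.9%). The part of any of these cell types in the rise of Tnfsf11 was not tested.

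Csf1, which encodes M-CSF, the survival factor of the precursors, had 0.18, 0.19 and -0.07 in LTBB OVX pools, -0.06, 0.00 and 0.08 in STBB OVX pools and 0.23, -0.07 and 0.22 in OVX pools, against -0.64, -0.60 and -0.54 in sham pools. These means over 4 probe sets did not overlap between OVX and sham pools, and OVX exceeded sham by log2 0.72 (SE 0.0950, adjusted p = 2.18e-05). The mean hides a disagreement. Probe set 1379631_at averaged 0.17 ± 0.15 in OVX pools and -1.95 ± 0.15 in sham pools (SD, n = 3 each), a log2 fold change of 2.11 (adjusted p = 8.91e-10 over all probe sets, of which 49.8% were called). For 1380583_s_at the change was 0.37 (adjusted p = 0.0135), and 1369354_at and 1380582_at, at 0.19 and 0.20, did not pass (adjusted p = 0.189 and 0.163). Most of the difference of Csf1 therefore came from 1 of its 4 probe sets. Where the probe sets lie on the transcript is not given in the sources used here. With the probe set of the lowest ID in place of the mean, Csf1 did not pass (log2 0.19, adjusted p = 0.174), nor did the mean after quantile normalization (0.55, adjusted p = 0.11).

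Tnfrsf11a encodes RANK, the receptor through which the ligand acts on precursors and mature osteoclasts. The LTBB OVX pools had 0.16, 0.19 and -0.06, the STBB OVX pools 0.09, -0.04 and 0.17 and the OVX pools -0.09, 0.04 and 0.18, against -2.40, -2.85 and -2.23 in sham pools. Sham was far below each pool of OVX rats, and the diets overlapped. RANK was 5.80-fold higher in OVX than in sham bone (95% interval 4.72 to 7.13), a log2 fold change of 2.54 (SE 0.137, adjusted p = 5.17e-09).

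Csf1r, the receptor tyrosine kinase for M-CSF, is carried by osteoclast precursors and by monocytes and macrophages. Values of 0.12, 0.07 and -0.04 in LTBB OVX pools, -0.07, 0.02 and -0.01 in STBB OVX pools and 0.01, 0.01 and 0.19 in OVX pools stood against -2.42, -2.75 and -3.08 in sham pools. No pool of OVX rats overlapped sham, and OVX was higher by log2 2.82 (SE 0.129, 7.05-fold, adjusted p = 1.17e-09). Genes of monocytes and macrophages did not move as 1 group beside it: 6 of 12 rose and 4 fell (83.3% called, beside 58.9% of all genes). Cd68 was at 2.69, Cd14 at 1.23 and Cd163 at -2.40. The mean centred value of these 12 genes was -0.02 to 0.08 in OVX arrays and -0.51 to 0.18 in sham arrays, so the list as a whole overlapped between OVX and sham. Csf1r ranked 76th among all genes from the largest rise down.

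The decoy receptor osteoprotegerin, encoded by Tnfrsf11b, had -0.22, 0.03 and 0.10 in LTBB OVX pools, 0.92, 0.15 and 0.34 in STBB OVX pools and 0.35, -0.03 and -0.06 in OVX pools, against -1.45, -1.54 and -1.42 in sham pools. It was thus higher in OVX than in sham bone, without overlap, in the same direction as the ligand it binds. The log2 fold change was 1.55 (SE 0.170, 2.94-fold, adjusted p = 3.75e-06), and after quantile normalization the call was lost (0.78, adjusted p = 0.171). Among the 9 genes it varied most between pools of OVX rats, and the highest value was STBB OVX pool 1.

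**Figure D2:**
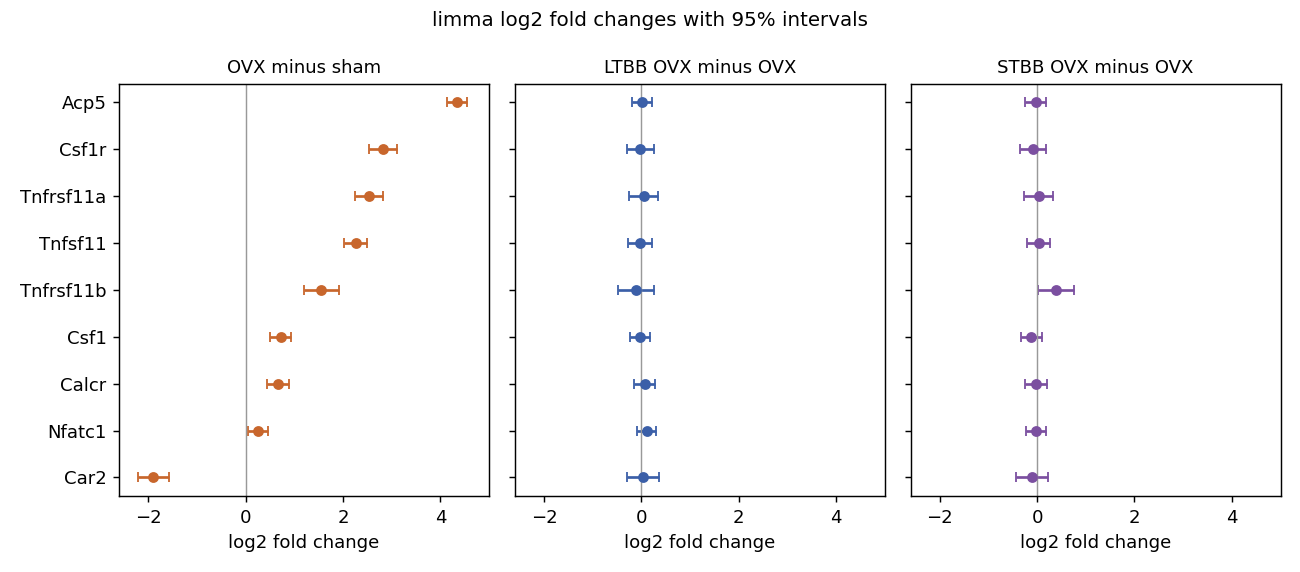
limma log2 fold changes (x axis) of the 9 genes (rows) with 95% intervals, for OVX minus sham, LTBB OVX minus OVX and STBB OVX minus OVX. Between OVX and sham every interval lies off 0, from Acp5 at 4.34 to Car2 at -1.90, and for the diets all intervals hold 0 except that of Tnfrsf11b in STBB OVX minus OVX, 0.01 to 0.75.

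Ligand and decoy were set against each other as the difference of their centred log2 values in each array, a ratio relative to its own median and not a ratio of amounts. It was 0.18, 0.21 and -0.19 in LTBB OVX pools, -0.78, -0.10 and -0.24 in STBB OVX pools and -0.10, 0.00 and 0.04 in OVX pools, against -0.91, -0.50 and -0.76 in sham pools. The OVX and LTBB OVX pools lay above sham without overlap, whereas STBB OVX pool 1 fell among the sham pools. OVX exceeded sham by 0.70 and LTBB OVX exceeded sham by 0.79, each with an exact two-sided permutation p of 0.10, the smallest that 3 pools against 3 can give. STBB OVX minus sham was 0.35 (exact p = 0.30). STBB OVX minus OVX was -0.35 (exact p = 0.20) and LTBB OVX minus OVX was 0.09 (exact p = 0.60). The difference between STBB OVX and LTBB OVX was -0.44 (exact p = 0.20). Without STBB OVX pool 1 the difference from OVX became -0.15 and that from LTBB OVX became -0.23. With the first probe set of Tnfsf11 alone OVX minus sham was 0.37. After quantile normalization OVX minus sham was 0.18, LTBB OVX minus sham 0.56, and STBB OVX minus sham turned to -0.51. The differences among OVX rats grew under this step, to -0.69 for STBB OVX minus OVX, 0.38 for LTBB OVX minus OVX and -1.08 for STBB OVX minus LTBB OVX. None of these 6 comparisons could reach a p of 0.05 in this design.

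**Figure D3:**
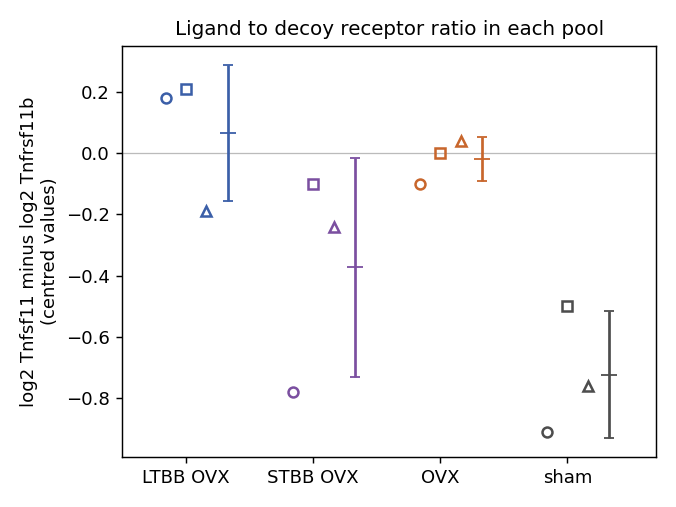
Difference between the centred log2 values of Tnfsf11 and Tnfrsf11b (y axis) in each pool of LTBB OVX, STBB OVX, OVX and sham rats (x axis, symbols for pools 1, 2 and 3), with mean and SD (n = 3 pools). OVX pools at -0.10 to 0.04 lie above sham pools at -0.91 to -0.50, and STBB OVX pool 1 at -0.78 lies within the sham range.

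Nfatc1, the transcription factor that RANK signalling induces and that activates Acp5, Calcr and other osteoclast genes, differed least among the 9. It had 0.16, 0.08 and 0.08 in LTBB OVX pools, -0.17, 0.11 and -0.01 in STBB OVX pools and -0.16, 0.01 and 0.15 in OVX pools, against -0.19, -0.35 and -0.21 in sham pools. OVX pool 1 lay just above the highest sham pool. OVX exceeded sham by log2 0.25 (SE 0.0917, 1.19-fold, adjusted p = 0.0329), and 56.3% of all genes changed at least as much. The call was lost without sham pool 2 (0.20, adjusted p = 0.117), OVX pool 2 (0.24, adjusted p = 0.0707) or OVX pool 3 (0.17, adjusted p = 0.15), and with plain analysis of variance (adjusted p = 0.0513) or the arrays of the 2 groups alone (adjusted p = 0.0663), and after quantile normalization (0.12, adjusted p = 0.697).

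Among the markers of the mature osteoclast, Acp5, which encodes the tartrate-resistant acid phosphatase TRAP by which osteoclasts are stained, differed most. Its values were 0.03, 0.02 and 0.02 in LTBB OVX pools, 0.02, 0.00 and -0.06 in STBB OVX pools and -0.04, 0.00 and 0.07 in OVX pools, against -4.16, -4.61 and -4.21 in sham pools. The 9 pools of OVX rats spanned a narrow band and the sham pools lay far below it. OVX exceeded sham 20.2-fold (95% interval 17.5 to 23.5), a log2 fold change of 4.34 (SE 0.0982, adjusted p = 6.74e-12), 14th among all genes from the largest rise down and matched or exceeded in size by 0.57% of them. After quantile normalization the log2 fold change was 2.26 (adjusted p = 1.37e-06), outside the interval of the deposited values.

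Calcr, the calcitonin receptor through which calcitonin restrains osteoclasts, had 0.22, 0.09 and 0.06 in LTBB OVX pools, -0.12, 0.11 and 0.11 in STBB OVX pools and 0.25, -0.12 and 0.03 in OVX pools, against -0.75, -0.49 and -0.61 in sham pools. These means over 2 probe sets did not overlap between OVX and sham, and the log2 fold change was 0.67 (SE 0.105, 1.59-fold, adjusted p = 9.77e-05). Here too the probe sets disagreed. For 1387488_a_at the change was 1.32 (adjusted p = 7.26e-06 over all probe sets), from a mean of 0.13 ± 0.32 in OVX pools and -1.20 ± 0.24 in sham pools (SD, n = 3 each), and for 1387487_a_at it was 0.02 (adjusted p = 0.882), with means of -0.01 ± 0.06 in OVX pools and -0.04 ± 0.18 in sham pools. The rise of Calcr thus came from 1 of its 2 probe sets, and with the other in place of the mean it did not pass (log2 0.02, adjusted p = 0.873). After quantile normalization the mean did not pass either (0.35, adjusted p = 0.304).

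**Figure D4:**
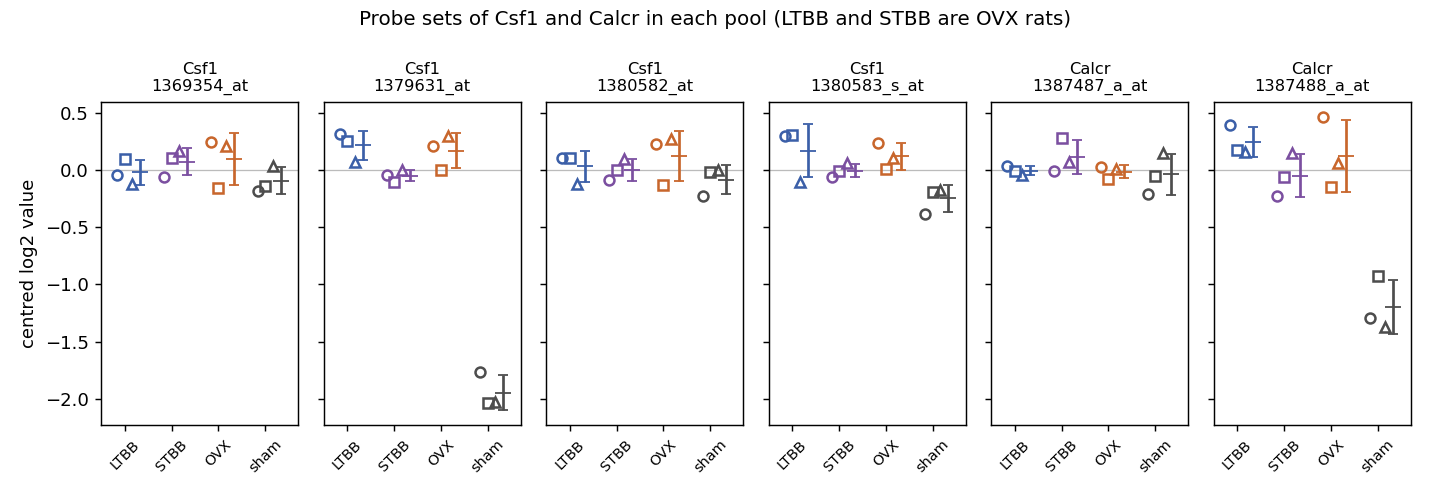
Centred log2 values (y axis) of the 4 probe sets of Csf1 and the 2 of Calcr in each pool of LTBB OVX, STBB OVX, OVX and sham rats (x axis, symbols for pools 1, 2 and 3), with mean and SD (n = 3 pools). Sham pools lie far below the others for 1379631_at and 1387488_a_at, with OVX minus sham at 2.11 and 1.32, and within about the spread of the pools for 1369354_at, 1380582_at and 1387487_a_at.

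Car2 encodes carbonic anhydrase 2, which supplies the protons that osteoclasts pump onto bone and is also abundant in red blood cells. It was 0.02, 0.01 and -0.17 in LTBB OVX pools, -0.26, -0.14 and -0.13 in STBB OVX pools and -0.35, 0.11 and 0.00 in OVX pools, against 1.93, 2.09 and 1.44 in sham pools. Unlike the other 8 genes it was lower in every pool of OVX rats than in every sham pool, by log2 1.90 between OVX and sham (log2 fold change -1.90, SE 0.151, 3.72-fold lower, adjusted p = 1.82e-07). Its 2 probe sets gave -1.91 and -1.88. The erythroid genes moved the same way. The mean centred value of 10 of them was -0.12 to 0.16 in LTBB OVX arrays, -0.22 to -0.13 in STBB OVX arrays and -0.27 to 0.12 in OVX arrays, against 2.38 to 2.82 in sham arrays. Epb42, a membrane skeleton protein of the red cell, was at -3.75, Hemgn at -3.73 and Alas2, the erythroid enzyme of haem synthesis, at -3.35, and Tfrc, at -0.26, did not pass (adjusted p = 0.0833). Their part in the fall of Car2 was not tested.

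The machinery that osteoclasts use to attach and resorb moved with Acp5. Of 22 measured genes 20 rose between OVX and sham, none fell and 2 did not pass, 90.9% called beside 58.9% of all genes (30.3% higher), with a median of 1.44 beside 0.0047 over all genes. Slc9b2, a sodium and proton exchanger of osteoclasts, was higher by 4.22, Ctsk, the protease that degrades bone collagen, by 3.81, the gelatinase Mmp9 by 3.43 and Ckb, a creatine kinase, by 3.27. Tcirg1, a subunit of the osteoclast proton pump, was higher by 1.24. Itgb3, a subunit of the vitronectin receptor by which osteoclasts attach, was at 0.07 and the adhesion kinase Ptk2b at 0.09, and neither passed.

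RNA of signalling genes did not share this direction. The lists of RANK signalling and of the Csf1r pathway hold both activators and inhibitors, so their counts do not give the direction of signalling. Of 26 genes of RANK signalling 9 rose, 5 fell and 12 did not pass (median 0.13). Here 53.8% were called, beside 58.9% of all genes. Lgr4, another receptor for RANK ligand, rose by 1.51 and Nfkb2 by 0.71, and Chuk fell by 0.69 and Mapk14 by 0.68. Traf6, the adaptor that RANK recruits, was higher by 0.26 (adjusted p = 0.0443), and Fos, a subunit of AP-1, was at 0.30 (adjusted p = 0.0536). Among 16 genes of costimulation and calcium signalling, 3 rose, 6 fell and 7 did not pass (56.2% called beside 58.9% of all genes, median -0.04). The kinase Btk fell by 1.47 and Plcg2 by 0.90, while the adaptor Tyrobp rose by 0.99 and the receptor Trem2, which signals through it, by 0.95.

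Of 16 genes of the Csf1r pathway 2 rose, 8 fell and 6 did not pass (median -0.24). Of them 62.5% were called, near the 58.9% of all genes. The list holds the ligand Il34 and the cytokine Csf2 beside genes downstream of the receptor. Mitf, a transcription factor of the osteoclast lineage, rose by 0.97 and Pik3r1 by 0.60, whereas the adaptor Dok1 fell by 1.08 and Pik3cd by 0.71. Il34, the other ligand of the receptor, was at -0.15 (adjusted p = 0.363). Among 20 genes listed here as brakes on osteoclast formation 8 rose, 7 fell and 5 did not pass (median 0.13). Of them 75.0% were called beside 58.9% of all genes, of which 30.3% were higher and 28.6% lower. The genes that rose include Wnt5a, at 0.34, whose place among brakes is uncertain. Wnt16, which restrains osteoclast formation in cortical bone of mice, fell by 2.07, the repressor Bcl6 by 1.20, the phosphatase Dusp1 by 1.08 and the repressor Irf8 by 0.61, and Sfrp1, a secreted inhibitor of Wnt signalling, rose by 0.90. No probe set was named for Dcstamp, Atp6v0d2 or Spi1, which were not analysed here.

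**Figure D5:**
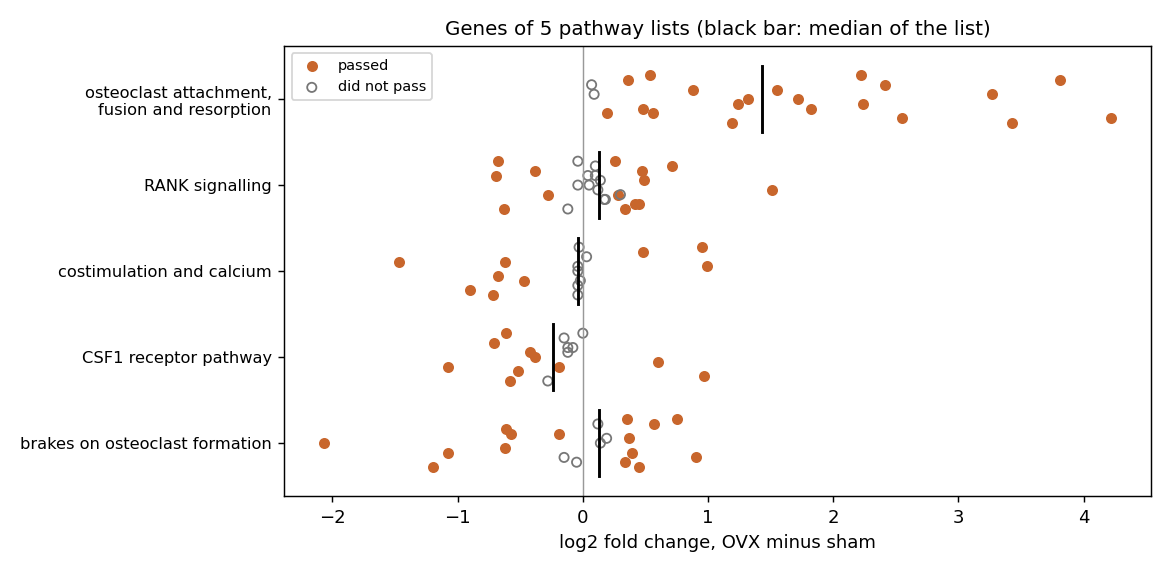
limma log2 fold changes of OVX minus sham (x axis) for each measured gene of 5 lists (rows), filled where the gene passed an adjusted p of 0.05 and open where it did not, with a black bar at the median of the list. The resorption genes lie at or above 0 with a median of 1.44, and the other 4 lists lie on both sides of 0.

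For the other groups of OVX rats against the same sham pools, the members' values were close in size to those of OVX, and since the sham pools are shared these are not separate tests of the direction. In LTBB OVX 8 of the 9 genes were higher than in sham and 1 was lower (58.3% of all genes called, 29.2% higher and 29.1% lower), with Acp5 at 4.35, Csf1r at 2.80, Tnfrsf11a at 2.59, Tnfsf11 at 2.22, Tnfrsf11b at 1.44 and Car2 at -1.87. STBB OVX had 7 higher, 1 lower and 1 not passed (58.3% of all genes called, 29.3% higher and 29.0% lower), with Acp5 at 4.31, Csf1r at 2.73, Tnfrsf11a at 2.56, Tnfsf11 at 2.29, Tnfrsf11b at 1.94 and Car2 at -1.99. After quantile normalization 5 of the 9 genes passed in LTBB OVX (16.1% of all genes called): Acp5 at 2.28, Csf1r at 1.24, Tnfrsf11a at 1.27, Tnfsf11 at 1.01 and Car2 at -0.72. In STBB OVX 6 passed (15.2% of all genes called): the same genes at 2.21, 1.07, 1.13, 1.04 and -1.06, and Tnfrsf11b at 1.55 (adjusted p = 0.0161). In the values as deposited, the gene that did not pass was Nfatc1, at 0.23 (adjusted p = 0.0509) in STBB OVX and at 0.35 (adjusted p = 0.00473) in LTBB OVX. Csf1 was higher by 0.69 in LTBB OVX and by 0.60 in STBB OVX, and Calcr by 0.74 in LTBB OVX and by 0.65 in STBB OVX.

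Whether either BB diet moved the axis in OVX rats was tested against OVX on the control diet. In LTBB OVX none of the 9 genes passed by limma (0.0% of all genes called), and none had an unadjusted p under 0.05, against 2.31% of all genes. The differences ran from -0.12 for Tnfrsf11b to 0.11 for Nfatc1, and no 95% interval of the 9 reached below -0.49 or above 0.36. For Acp5 the difference was 0.01 (interval -0.20 to 0.22), for Tnfsf11 -0.03 (-0.27 to 0.21), for Tnfrsf11a 0.05 (-0.25 to 0.35), for Csf1r -0.02 (-0.30 to 0.26) and for Csf1 -0.03 (-0.23 to 0.18). These intervals hold 0 and bound the size of a diet difference, and they do not show that the groups were alike.

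In STBB OVX none of the 9 passed against OVX either (0.0% of all genes called), and 1, Tnfrsf11b, had an unadjusted p under 0.05, as did 2.89% of all genes. Its 3 STBB OVX pools at 0.92, 0.15 and 0.34 overlapped the OVX pools at 0.35, -0.03 and -0.06, and the difference was 0.38 (95% interval 0.01 to 0.75, unadjusted p = 0.0428, adjusted p = 1 by limma). Without STBB OVX pool 1 it was 0.16. For Acp5 the difference was -0.03 (interval -0.24 to 0.19), for Tnfsf11 0.03 (-0.21 to 0.27), for Tnfrsf11a 0.03 (-0.27 to 0.33), for Csf1r -0.09 (-0.36 to 0.19) and for Csf1 -0.12 (-0.33 to 0.09).

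STBB OVX was also set against LTBB OVX, where again 0.0% of all genes were called. Tnfrsf11b had the 1 unadjusted p under 0.05 (3.4% of all genes). All 3 STBB OVX pools (0.92, 0.15 and 0.34) lay above all 3 LTBB OVX pools (-0.22, 0.03 and 0.10), as 5.3% of all genes did, and the difference was 0.50 (95% interval 0.13 to 0.87, unadjusted p = 0.0118, adjusted p = 1 by limma). It was 0.28 without STBB OVX pool 1. Differences of the other 8 genes ran from -0.13 for Nfatc1 and Car2 to 0.06 for Tnfsf11, and all their intervals held 0. No gene of the 5 pathway lists passed in any of the 3 diet comparisons. Skeletal muscle genes, whose mean centred value was -3.07 to 0.56 in LTBB OVX, -0.11 to 0.55 in STBB OVX and -3.04 to -1.30 in OVX arrays, varied between these pools far more than the 9 genes did. All 8 growth plate cartilage genes were higher in STBB OVX than in LTBB OVX (median 0.38), 4 with an unadjusted limma p under 0.05, and none passed. Whether this bears on Tnfrsf11b was not tested.

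Over the 12 arrays, which differ chiefly between OVX rats and sham, many genes followed the members. Acp5 correlated above r = 0.9 with 2662 genes, Tnfsf11 with 2620 and Car2 with 2250. Most like Acp5 were Cd276, Srpx2, Kif7, Lix1l and Ak5, each at r = 0.999. Tnfsf11 was most like Bmpr1a, a receptor for bone morphogenetic proteins, and the collagens Col10a1 and Col6a3 (r = 0.997 each), then Tjp1 and Srpra (0.996 each). Col10a1, from the growth plate cartilage list, was higher in OVX than in sham by log2 8.68. Car2 was most like Psmf1 and Bex4 (0.997 each), then Pttg1, the erythroid haemoglobin chaperone Ahsp, and Prdx2 (0.996 each). These correlations describe arrays that share the 2 conditions.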

How the data were processed

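Total bone RNA of 4 groups of rats was measured on 12 arrays, 3 pools per group. The authors deposited log2 values, made, by the methods, with robust multiarray analysis (RMA) and then GeneSpring, with a floor for the smallest measurements and scaling per chip and per gene. The submitters' notes name GCOS and RMA without a version. The centring removes levels, and the floor can shrink differences of dim genes.

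Of 31099 probe sets 57 controls were left out. GEO's platform annotation gave 1 symbol to 20826 of the other 31042, several to 436 and none to 9780, and 20758 symbols were updated by gene ID through RefSeq (GRCr8, names only). A gene is the mean of the probe sets with its symbol alone (14217 genes, 4525 with several). No dim probe set was removed.

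Means of 4 groups were fitted over all 12 arrays with limma 3.58.1 in R 4.3.3, with moderated variances (8 residual and 4.39 prior degrees of freedom), 6 contrasts and Benjamini-Hochberg adjustment over all genes at 0.05. Tested on simulated data (14217 genes, 200 of them changed), the fit recovered 94% of changes of log2 1 and 99% of log2 2 for OVX minus sham, 98% and 99% for LTBB OVX minus OVX, and 97% and 100% for STBB OVX minus OVX. The simulated noise was independent between genes, with the same spread in each group. Changes smaller than log2 1 were not simulated, so this recovery does not cover diet differences of the sizes given here. Ratios of Tnfsf11 to Tnfrsf11b were compared by an exact permutation test (two-sided). Precision is limited by the number of arrays, and p-values measure the spread between pools.

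The members, the gene lists and the tests were chosen with earlier results of these data known. Named were all 9 genes, up to 4 genes per pathway list and 3 per cell type list with the largest changes among those that passed without overlap of pools, 13 pathway genes fixed by name, and the 5 genes most correlated with Acp5, Tnfsf11 and Car2. Genes named beside this rule (Itgb3, Ptk2b and Tfrc) were chosen after their values were seen. Between OVX and sham 0 of 3 B cell genes rose and 1 fell (33.3% called), and 2 of 7 T cell genes rose and 1 fell (42.9% called). Of all genes 58.9% were called there. Alternatives were 1 probe set per gene, all probe sets, median centring, quantile normalization, array weights, robust variances, only the groups compared, plain analysis of variance, a stricter threshold, a replicate block and leaving out each array. A fit without sham arrays was added after seeing the data. Tables and figures were made in Python 3.11.15 (matplotlib 3.10.9).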

Additional observations from a re-analysis of the deposited data

How the results depend on the processing

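Precision is limited by 3 pools per group, and centred values hold no signal over background. Quantile normalization gives sham arrays the same spread as the others by construction. Calls over all genes fell to 2006 (14.1%) in OVX minus sham, against 8367 (58.9%) before, and to 16.1% in LTBB OVX minus sham, against 58.3%. Of the 9 genes 5 stayed called in OVX minus sham and 5 in LTBB OVX minus sham (9 each before). Those kept in OVX minus sham moved by over 1.5 times, to 2.26 for Acp5, 1.27 for Csf1r, 1.08 for Tnfrsf11a, 0.96 for Tnfsf11 and -0.77 for Car2, and those lost were Tnfrsf11b (0.78, adjusted p = 0.171), Csf1 (0.55, 0.11), Nfatc1 (0.12, 0.697) and Calcr (0.35, 0.304). Quantile normalization turned the Tnfsf11 to Tnfrsf11b ratio of STBB OVX minus sham to -0.51. The wider spread of the sham arrays is one of centred values, so it holds their distance from the arrays of OVX rats. What set the sham arrays apart, and why this ratio turned, was not tested. No value of the 9 genes against sham changed sign in any setting. For Csf1 and Calcr, 1 probe set per gene or all probe sets ended the call in all 3 contrasts with sham.

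Besides that ratio, sign changes occurred in the diet contrasts, among values of the 9 genes that never passed. In LTBB OVX minus OVX quantile normalization gave 0.05 for Tnfsf11 and 0.03 for Csf1, and array weights 0.04 for Tnfsf11 and -0.02 for Acp5. In STBB OVX minus OVX Calcr was 0.13 with 1 probe set or all probe sets, and Tnfrsf11a -0.02 with array weights. In STBB OVX minus LTBB OVX Csf1 was 0.09 and Calcr 0.11 with 1 probe set or all probe sets. Leaving out 1 array gave, in LTBB OVX minus OVX, Tnfsf11 -0.13 to 0.06, Tnfrsf11a -0.02 to 0.13, Tnfrsf11b -0.19 to 0.01, Csf1 -0.12 to 0.06, Csf1r -0.05 to 0.05, Calcr -0.02 to 0.16, Acp5 -0.01 to 0.04 and Car2 -0.10 to 0.12. In STBB OVX minus OVX it gave Tnfsf11 -0.02 to 0.12, Tnfrsf11a -0.04 to 0.10, Nfatc1 -0.10 to 0.05, Calcr -0.11 to 0.07, Acp5 -0.05 to 0.00 and Car2 -0.23 to 0.00, and in STBB OVX minus LTBB OVX Tnfsf11 0.00 to 0.17 and Tnfrsf11a -0.10 to 0.04. Of the 9 genes none was called in a diet contrast under any setting, the fit without sham arrays included, but over all genes 40 were called in STBB OVX minus OVX with only those groups, 2 after quantile normalization, 8 without LTBB OVX pool 3 and 1 without STBB OVX pool 1, and in STBB OVX minus LTBB OVX 9, 8 and 1 in the last 3 of these settings.

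Leaving out 1 array ended only the call of Nfatc1 in OVX minus sham (0.17 to 0.33, adjusted p 0.0107 to 0.15). In STBB OVX minus sham, where Nfatc1 had missed the threshold, it passed without OVX pool 1 (adjusted p = 0.0368), OVX pool 3 (0.0415) or STBB OVX pool 1 (0.0189), after median centring (0.0475) and with array weights (0.0391).

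The pool numbers are shared by the groups, but same-numbered pools correlated at -0.38 to 0.23 in their deviations, and 5 of 18 pairs were above 0.1, so the numbers were not taken to pair the pools. With the replicate block 8196 genes were called in OVX minus sham, and the 9, 9 and 8 members called in OVX, LTBB OVX and STBB OVX minus sham stayed 9, 9 and 8.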
